A study of Gallus gallus with 2 samples.

Results

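The DEAD box (DDX) and DEAH box (DHX) genes encode ATP-driven helicases named after a motif of 4 amino acids in their ATPase core. Their transcripts were measured in DT40, a lymphoma line of chicken bursal B cells, with and without the histone variant H2A.Z. Members were all probe sets whose platform gene symbol is DDX or DHX followed by a digit, which gave 41 genes (29 DDX and 12 DHX) of 13009 named genes, on 102 of 38439 non-control probe sets. All 41 were found in the chicken reference by gene identifier, under the same symbol. The family is not complete on this array. DDX23, DDX39A, DDX39B, DDX56, DHX9, DHX16, DHX32 and DHX34 had no probe set under those symbols and were not analysed. The study hybridised 2 Affymetrix arrays. The first held RNA of wild-type cells, the other RNA of double knockout cells without H2A.Z-1 and H2A.Z-2. In the knockout cells H2A.Z-2 was deleted for good. H2A.Z-1 came only from a transgene that tetracycline represses, and RNA was taken after 3 days of the drug. The protocol text on tetracycline stands with both samples, but only the knockout's title names the drug, so whether the wild-type cells received it is not settled by the labels. Genotype and any other difference between these cells cannot be told apart, nor the drug if wild-type cells had none.

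Most DEAD box proteins open short RNA duplexes locally or hold on to RNA as clamps. DEAH box proteins instead pull along a strand from its 3′ side and take large RNA-protein machines apart. Together they act at nearly every step of RNA life: making ribosomes in the nucleolus, remodelling the spliceosome, exporting, translating and destroying mRNA, and sensing viral RNA. A few are known mainly from germ cells, and DDX11 carries the symbol but is a DNA helicase of the iron-sulphur type that is needed for sister chromatid cohesion.

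The deposited values are MAS5 signals on a linear scale, and each ratio is the log2 signal of the knockout array minus that of the wild-type array. A gene counted as measured when a probe set lay above a signal floor of 58.3, the median of all signals, on at least 1 array, and it was then read from its brightest probe set. With 1 array per genotype no test was possible, no difference has a replicate check, and counts at 1.5-fold (0.58 on the log2 scale) and 2-fold are descriptions of these arrays. The precision is limited by the number of arrays. The only error that could be estimated was that between probe sets of one gene: the SD of a log2 ratio was 0.42 over 2237 genes with exactly 2 usable probe sets (each over the floor on both of the arrays), and 0.56 over the 16 such helicase genes. The targeted genes were far lower in the knockout: H2AFZ, which is H2A.Z-1, at 387 against 27331, and H2AZ2, which is H2A.Z-2, under the floor against 18244. Of the B cell markers, 10 of 10 on the array were above the floor on both arrays, and their summed signal was 50408 in wild type and 32746 in the knockout. The bright genes weigh most in this sum, and CD74, the brightest in wild type, went from 14969 to 5510. By log2 ratio 8 of the 10 were below 0 and 2 above, LYN (0.44) and EBF1 (0.47). The summed signals of other lineages were 12683 and 4359 for 8 T cell markers, nearly all of it CD3D (12407 and 4162), and between 138 and 684 on either array for 4 myeloid and thrombocyte, 3 erythroid and 6 fibroblast markers. All of these signals, CD3D included, came from cells of 1 B cell line. Whether they differed in all cells or in some cannot be told from bulk RNA, and the part of these shifts in the helicase values was not tested.

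Read from their brightest probe sets, the helicase genes were mostly close to their wild-type signal. Of 41 genes, 37 were measured, all of them above the floor on both arrays, and 31 of these 37 lay within 1.5-fold. On their brightest probe sets DDX10, DDX11 and DHX37 were at least 1.5-fold higher and DDX18, DHX40 and DHX57 at least 1.5-fold lower. The 6 genes make 16.2% of the measured members, while 28.5% of all 9540 measured genes were at least 1.5-fold apart. By direction, 8.11% of members were higher and 8.11% lower, against 12.6% and 15.9% of all genes. With the median of all measured probe sets of each gene, the shares in either direction were 16.2% of members and 25.7% of all genes. Counted by probe set, members did not have the lower share in the downward direction. Of all 81 measured probe sets of the members, 9.88% were at least 1.5-fold higher and 21% lower. Over all genes these shares were 11.8% and 17.4% of 16539 measured probe sets. Only DDX11 passed 2-fold, 1 higher and 0 lower gene (2.70% of members in either direction), against 3.94% higher and 6.71% lower among all genes (10.6% together). The median log2 ratio of the members was -0.04, and 17 were above 0 and 20 below, where the median of all measured genes was 0.02 and 51.5% were above 0. The middle of the family ran from -0.32 (25th percentile) to 0.19 (75th percentile), against -0.36 to 0.33 for all genes.

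Brightness differs between the family and the array as a whole. The median member was brighter than 73.3% of measured genes, and 89.2% of members against 55.4% of all genes were above 307, the 75th percentile of signals, on both arrays. Bright genes spread less between the arrays, as the plot of ratio against signal shows. With the floor raised to 307, 3 of 35 members (8.57%) and 22.1% of 5861 genes were at least 1.5-fold apart. Signals under 307 were then set to it, which shrinks ratios. DDX18 went from -0.995 to -0.04 and DHX57 from -0.81 to -0.18, so these shares do not describe bright genes alone.

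**Figure D1:**
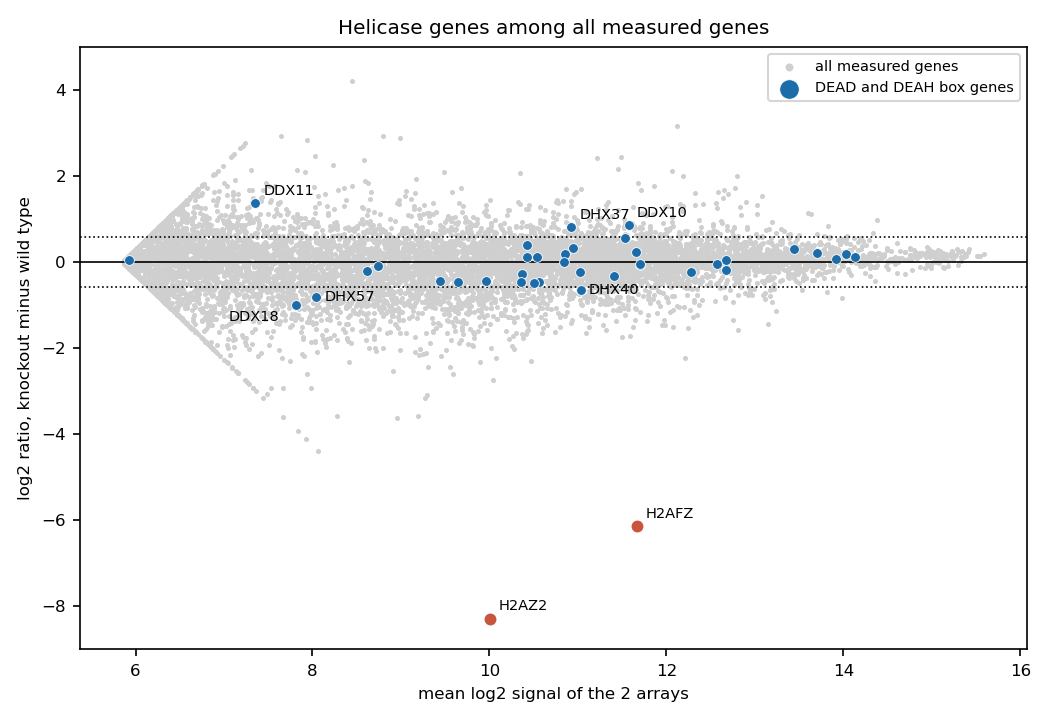
Log2 ratio of signal (knockout minus wild type) against the mean log2 signal of both arrays, 1 point per measured gene. Grey points are all 9540 measured genes, blue points the 37 helicase genes, red points both H2A.Z genes, and dotted lines mark 1.5-fold. The slanted edges on the left are genes set to the floor on 1 array. The helicase genes lie within 1.5-fold apart from the 6 that are named.

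Helicases of ribosome biogenesis formed the largest role group. They work in the nucleolus, where they free small nucleolar RNAs from precursor rRNA and fold the subunits step by step. All 14 on the array were measured, with 2 at least 1.5-fold higher and 1 lower (21.4% together, against 28.5% of all genes). The median log2 ratio was -0.03. DDX10, the counterpart of yeast Dbp4, lies on chromosome 1 (gene 418965); its signal went from 2268 in wild-type cells to 4098 in knockout cells, 1.81-fold higher. Its only other measured probe set was dim and went the other way, from 64.9 to under the floor. A signal of 64.9 is itself close to the floor, so this probe set says little of direction. DHX37, whose yeast counterpart Dhr1 acts on the small subunit precursor, went from 1473 to 2572 (gene 416813, chromosome 15), 1.75-fold higher. A second probe set of DHX37 went from 1341 to 1881, a log2 ratio of 0.49, while its dimmest one went from 161 to 82.0. The higher call for DHX37 thus had 1 of its 2 other probe sets on the same side, and that for DDX10 had none. The probe set of DHX37 on the same side has the name of the brightest one apart from the type ending. It may therefore not be a separate reading.

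DDX18, the counterpart of yeast Has1 and a factor of the large subunit, was the lowest member of the family. Its signal went from 316 to 159 (gene 424278, chromosome 7), 1.99-fold lower or a log2 ratio of -0.995. It rested on a single dim probe set. DDX31 (1779 to 1287), DDX47 (1721 to 1228) and DDX55 (1533 to 1118) lay 1.38-fold, 1.40-fold and 1.37-fold lower, short of 1.5-fold. For DDX31 the other probe set had nearly the same log2 ratio, -0.48 beside -0.47. For DDX55 it was on the other side, at 0.21, and for DDX47 the others were at -0.81 and, from a probe set near the floor, 0.60.

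DDX21, which ties RNA polymerase I to rRNA processing, was bright but its 3 measured probe sets gave 3 answers. The brightest went from 10039 to 12403 (log2 ratio 0.30), the next from 7325 to 6437 (-0.19) and the dimmest from 2537 to 1144 (-1.15). All 3 are of types that can be shared between transcripts or genes, and no direction can be given for the gene. DDX51, needed for maturation of the large subunit, showed the widest such gap in the family. Its brightest probe set stayed level, at 1834 and 1830.3, while the other went from 548 to 144, 3.81-fold lower. DDX24 had its brightest probe set at -0.06 and the other 2 at -0.64 and -0.88. The names of those 2 differ only in the type ending, so they may not be separate readings. DDX52, by contrast, was at -0.23 on its brightest probe set and at 0.12 and 0.70 on the others. DDX27 (-0.24), DDX49 (0.18), DDX54 (0.11) and DHX33 (0.23) were near their wild-type signal.

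**Figure D2:**
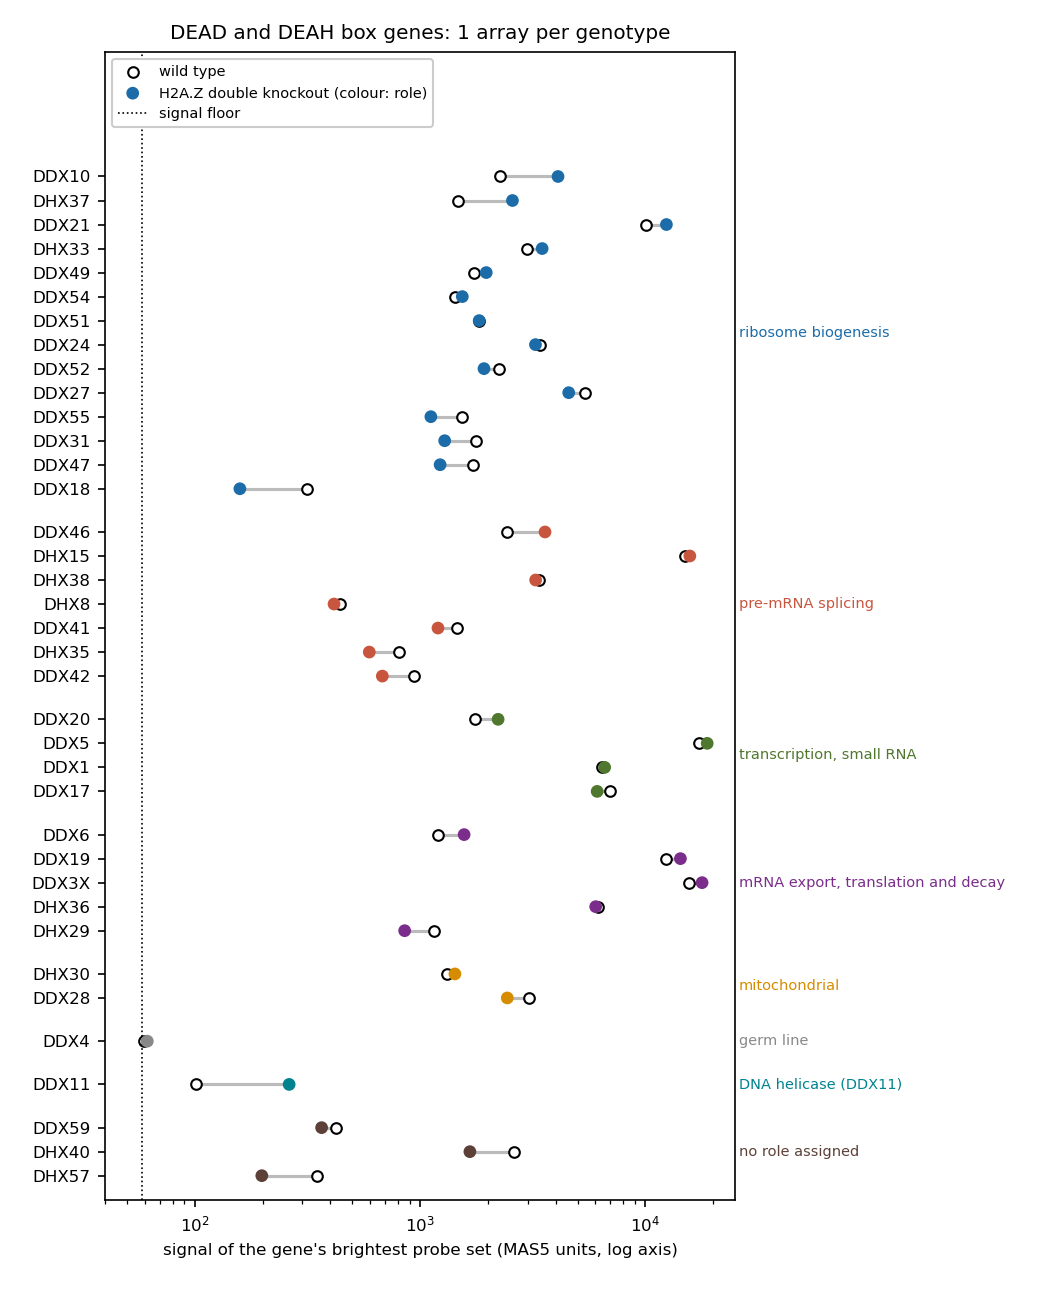
Signal of each measured helicase gene's brightest probe set in MAS5 units on a log axis, open circles for the wild-type array and filled circles for the knockout array, grouped by role and ordered within a group by ratio. The circles of most genes nearly touch. DDX10, DHX37 and DDX11 are visibly higher in the knockout and DDX18, DHX57 and DHX40 lower.

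Splicing helicases drive the spliceosome from one state to the next and then release its parts. Of 11 listed, 7 were on the array under their symbols, and all 7 were measured. None of the 7 was 1.5-fold apart on its brightest probe set, against 28.5% of all genes, and the median log2 ratio was -0.09. A list of 7 genes is too short to be set against that share. DDX46, the counterpart of yeast Prp5 that acts when the branch site is recognised, was the highest of them, from 2429 to 3588 or 0.56, just inside the 1.5-fold line; a second probe set was at 0.13. DHX15, which disassembles spliceosomes, was level on its bright probe set (15057 to 15760) but lower on a dimmer one that is shared between transcripts (1729 to 741, log2 ratio -1.22). DHX38 (log2 ratio -0.05) and DHX8 (-0.09), counterparts of yeast Prp16 and Prp22, differed little on their brightest probe sets. The other probe sets of DHX8 were dim and lay between -0.86 and 0.62. DDX42, linked to the branch-site complex, was the lowest, from 940.5 to 681, with a second probe set that went up from 59.8, close to the floor, to 138. DHX35 was at -0.44 on its single probe set. DDX41, known from inherited leukaemia, was at -0.28 and -0.30 on 2 probe sets and at -1.16 on another that was dim.

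Helicases of transcription and small RNA processing stayed near their wild-type signal on their brightest probe sets. All 4 measured were within 1.5-fold, with a median log2 ratio of 0.08. Of all genes 28.5% were at least 1.5-fold apart, a share against which 4 genes say little. DDX5, a coactivator that also works with the microRNA enzyme Drosha, had signals of 17236 and 18818. Its close relative DDX17 had 6964 and 6113, with a dim second probe set at -0.79. DDX1, a subunit of the tRNA ligase complex, was almost the same on both arrays by each of its measured probe sets, 6427 and 6599 on one and 3557 and 3675 on the other. DDX20, also called Gemin3, a subunit of the SMN complex that builds spliceosomal snRNPs, went from 1758 to 2221 (0.34), with others at 0.14 and -0.39.

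Among helicases of mRNA export, translation and decay, 5 were measured and the median log2 ratio was 0.19. None of the 5 was 1.5-fold apart, against 28.5% of all genes, too few genes to be set against that share. DDX3X, which helps translation start on structured mRNAs, had signals of 15623 and 17857. DDX19, the export factor at the nuclear pore (listed in the reference with DDX19B as a synonym), had 12319 and 14315, and a second probe set went the same way (0.35). DDX6, which represses and decaps mRNA in P-bodies, was the highest of the group, from 1196 to 1569, with a second probe set from 689 to 863. The 2 log2 ratios of DDX6 were 0.39 and 0.33, and their closeness says nothing of the error between arrays. DHX29, which assists the small ribosomal subunit while it scans, was the lowest, from 1154 to 855 and from 462 to 426. DHX36, which unwinds G-quadruplexes, had 5 measured probe sets, all below 0, from -0.04 on the brightest to -0.69.

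The mitochondrial helicases DHX30 and DDX28, which help to assemble mitochondrial ribosomes, lay on opposite sides of 0. DHX30 went from 1314 to 1429 (0.12), and all 3 of its probe sets were above 0, the dimmest at 0.97 (182 to 356). The dimmest shares its name with another apart from the type ending, so these may not be separate readings. DDX28 went from 3037 to 2439.6 (-0.32), and all 3 of its probe sets were below 0, the other 2 at -0.65 and -0.70.

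DDX11 had the highest ratio of the family, but on dim probe sets that differed. The brightest went from 101 to 263 (gene 418144, chromosome 1), 2.59-fold higher. The other 3 measured ones were at 0.27 (108 to 130.0), -0.02 (120.0 to 119) and -0.32 (72.7 to under the floor). That probe set counts as the brightest through its knockout signal, since 2 others were brighter in wild type, so the choice of probe set depended on the difference itself. The call rests on 1 of 4 probe sets.

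The genes to which no role was assigned held the other lower calls. DHX40 went from 2624 to 1665 (gene 772090, chromosome 19), 1.58-fold lower, on its only measured probe set, which is of the unshared type. DHX57 went from 348 to 199 (gene 426560, chromosome 3), 1.75-fold lower. Another probe set of DHX57 went from 180 to 97.8 (-0.88), and the last, close to the floor, was level (68.4 and 66.4). DDX59 was at -0.21 and -0.25, on probe sets whose names differ only in the type ending.

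The helicase genes assigned here to the germ line and to innate RNA sensing were close to or under the floor. DDX4, the vasa gene that marks germ cells, had signals of 59.8 and 61.6, barely above the floor of 58.3, which gives no usable ratio. DDX25 and DDX43, known from testis, reached at most 33.7 and 21.1 on either array. The antiviral DDX60 reached at most 33.6. DHX58, also called LGP2, a regulator of viral RNA sensing, reached at most 49.97. Together these 4 unmeasured genes had 8 probe sets, and at this signal a difference between the arrays was not detectable.

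The 6 calls differed in how far other probe sets of the gene went the same way. Of the 37 measured genes, 10 had a single measured probe set and 27 had several. In 11 of these 27 (40.7%) the probe sets lay on opposite sides of 0, against 44.8% of all 4419 genes with several. The 3 higher calls all belong to such genes, and each came from a probe set that can be shared between transcripts or genes. The 3 lower calls had no probe set above 0, although 2 of them had only 1 to go by. Using the median of all measured probe sets of each gene in place of the brightest left 0 genes at least 1.5-fold higher and 6 lower, against 10.4% and 15.3% of all genes under that setting. The 6 were DDX18, DHX40 and DHX57 together with DDX24, DDX28 and DDX51. No test was made in either case.

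**Figure D3:**
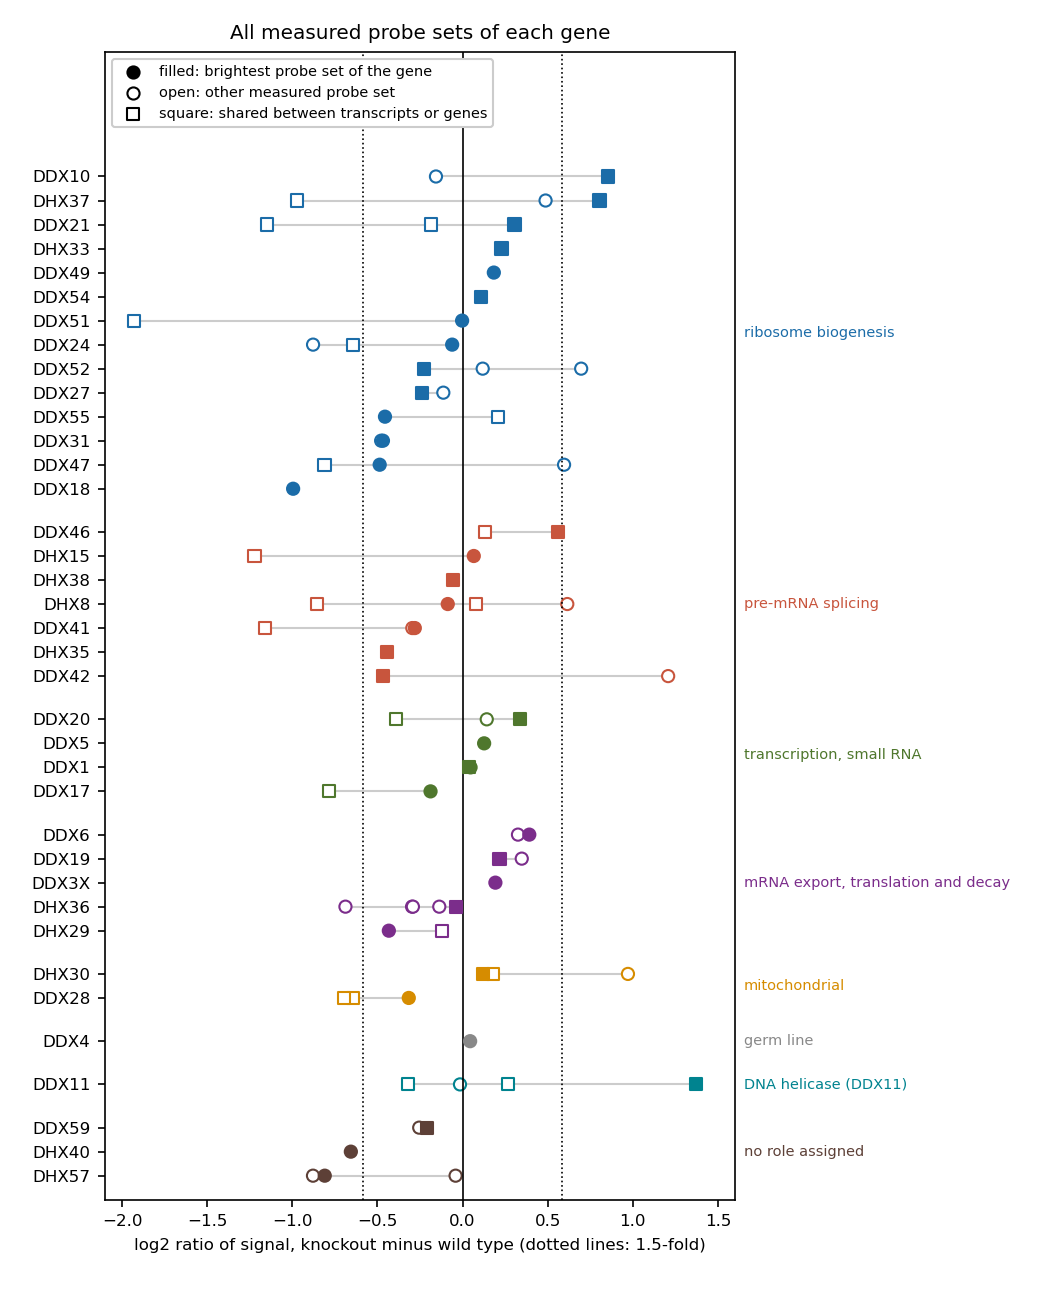
Log2 ratio (knockout minus wild type) of each measured probe set of each helicase gene, filled for the brightest of the gene, open for the others, squares for types that can be shared between transcripts or genes; grey lines span a gene's probe sets and dotted lines mark 1.5-fold. Open symbols far to the left of filled ones are seen for DDX51, DHX15, DDX21, DDX41 and DHX37, and DDX10 and DDX11 have their filled symbol alone on the right. Open symbols far to the right of filled ones are seen for DDX42, DDX47, DDX52 and DHX30.

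Dimmer probe sets were more often lower than the brightest ones. Of the 44 measured probe sets that were not the brightest of their gene, 14 (31.8%) were at least 1.5-fold lower and 5 (11.4%) at least 1.5-fold higher. Over all genes 19.4% of 6999 such probe sets were lower and 10.8% higher. The 14 came from 12 of the 27 genes, of which 10 were within 1.5-fold on their brightest probe set. Probe sets of a gene share its transcript, so these counts are not independent. The actin control had a ratio of 3′ to 5′ signal of 1.13 in wild type and of 1.95 in the knockout, while the GAPDH controls were at 1.02 to 1.03 and 1.04 to 1.07. The labelling used starts at the 3′ end, and where the helicase probe sets lie along their transcripts was not examined, so the part of this difference in the dimmer probe sets was not tested.

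RNA helicases outside the symbol rule were also mostly within 1.5-fold. Of 13 measured, 1 was at least 1.5-fold higher and 0 lower (7.69% together, against 28.5% of all genes). The median log2 ratio was -0.08. The translation helicase EIF4A2 had 37086 and 37430 and the exon junction helicase EIF4A3 had 18139 and 19827. The highest ratio was that of SKIV2L, the helicase of the cytosolic exosome. It was dim (171 to 266, log2 ratio 0.63), with another probe set at -0.83. UPF1 of nonsense-mediated decay (0.23) and the mitochondrial SUPV3L1 (0.20, with others from -0.71 to 0.77) came next. The lowest were DICER1 (-0.44, 1 probe set), HELZ (-0.39, with others from -1.25 to 0.63) and YTHDC2 (-0.32, with another at 0.14). Over all its probe sets the median of YTHDC2 was 0.11.

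Genes for proteins that bind or activate these helicases were also near their wild-type signal as a list, with a few lower members. All 56 on the array were measured, 2 were at least 1.5-fold higher and 7 lower (16.1% together, against 28.5% of all genes), and the median log2 ratio was -0.02. The highest were EDC4 (275 to 457) and DCP1A (121 to 187), decapping factors that work with DDX6, and EIF4G1 (490.0 to 714), the scaffold of the EIF4A helicases. The lowest was GEMIN8 (858 to 346, 2.48-fold lower), a subunit of the SMN complex, followed by the G-patch proteins ZGPAT (178 to 79.3) and GPATCH2 (126 to under the floor). Each of these 3 had 1 measured probe set, as had EDC4 and EIF4G1.

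Partners of DDX20 and DDX1 were looked at further after their values were seen. In the SMN complex GEMIN6 was also lower (304 to 182) and GEMIN5 went from 98.6 to under the floor. GEMIN2 was at -0.30, while GEMIN4 (0.27), SMN itself (0.21) and DDX20 (0.34) were above 0 on their brightest probe sets. Each of the latter also had a probe set below 0, at -0.41 for GEMIN4, -0.13 for SMN and -0.39 for DDX20. In the tRNA ligase complex the catalytic subunit RTCB went from 1992 to 1059, 1.88-fold lower, and FAM98B was at -0.54. RTCB, like GEMIN2, GEMIN5 and GEMIN6, had only 1 measured probe set. FAM98A (-0.06), RTRAF (0.16) and DDX1 (0.04) differed little. The remaining member of the 7 was TRIM14 (-0.78), an adaptor of antiviral signalling.

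**Figure D4:**
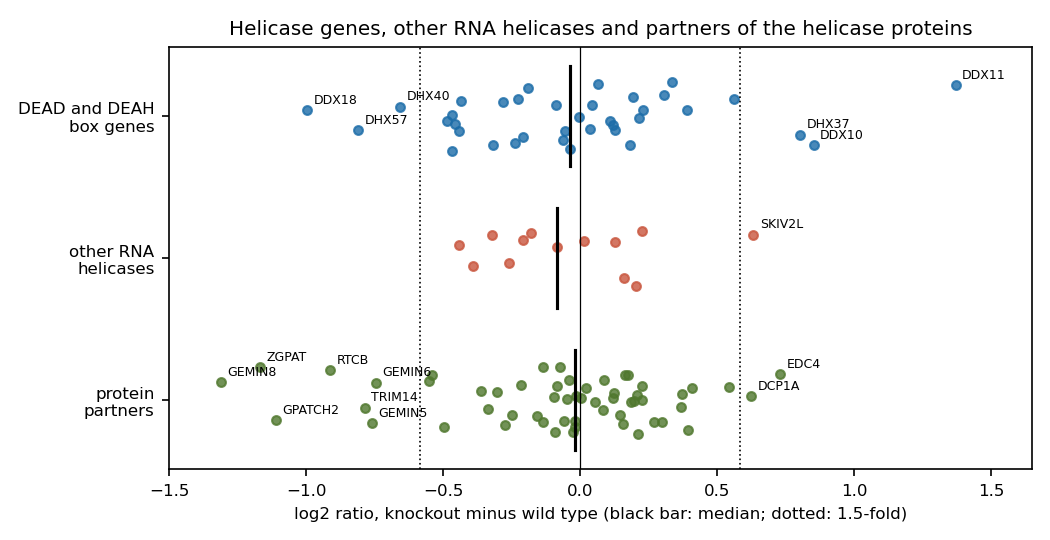
Log2 ratio (knockout minus wild type) of the 37 helicase genes, 13 other RNA helicases and 56 genes for protein partners, 1 point per gene with vertical scatter added for visibility. Black bars are medians, at -0.04, -0.08 and -0.02, and dotted lines mark 1.5-fold, beyond which genes are named.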

How the data were processed

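Biotin-labelled cRNA from total RNA of wild-type and double knockout DT40 cells was put on 1-colour Affymetrix arrays, per the labels. The deposited values are linear intensities of probe sets from MAS5, the tool named in the submitters' processing notes. Its version and scaling target are not given in the sources used, and detection calls were not used here. Both arrays had the same trimmed mean (500.15 and 500.16, 2% left out at each end), so a trend with brightness can remain. Gene names came from the platform annotation (177 probe sets name several genes, 11180 none, and 96 are controls) and RefSeq genes of GRCg7b, used for names, chromosomes and neighbours only.

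Signals under the floor (58.3, the 50th percentile of non-control signals of both arrays) were set to it and log2 was taken. A fold with 1 array under the floor is a bound. Genes named by rule were members at least 1.5-fold apart and the brightest, highest and lowest of each role group. The rule also took members whose probe sets lay on opposite sides of 0 with 1 at least 1.5-fold. From the other lists it took the 3 highest and 3 lowest. Most of these genes are given with both signals, some by log2 ratio only. Other members were described after their values were seen. Members, roles and lists were chosen with earlier results of these data known. The computation was tested on simulated data with known changes in bright genes and little noise. That test did not cover dim probe sets or the error between probe sets seen here. Alternatives were median centring, quantile normalization, loess (span 0.3), a lower and a higher floor (percentiles 25 and 75), only genes over the floor on each array, a pseudocount, the median over probe sets, leaving out shared probe sets (names ending in _s_at, _x_at or _a_at) and RefSeq synonyms. Python 3.11.15, pandas 2.3.3 and statsmodels 0.14.6 were used.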

Additional observations from a re-analysis of the deposited data

How the results depend on the processing

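The floor, the choice of probe set and median centring moved which helicase genes were 1.5-fold apart. The same settings also moved some medians. Quantile normalization and loess left the same 6 genes. Median centring, which moved the median of all genes from 0.02 to 0.16, turned the median of the helicase genes to 0.11, of those of ribosome biogenesis to 0.12, of the other RNA helicases to 0.070 and of the partners to 0.13; no direction is claimed for these lists. With the median over all measured probe sets, 0 helicase genes were at least 1.5-fold higher and 6 lower, and the medians were -0.15 for ribosome biogenesis, 0.13 for DDX11, 0.058 for the other RNA helicases and -0.089 for the partners, while SKIV2L turned to -0.13. Without shared probe sets DDX10 turned to -0.16 on a probe set close to the floor, and DDX11 to -0.015 on a dim one. DHX37 was at 0.49, so that all 3 higher calls were lost. DDX42 (1.21, from a wild-type signal of 59.8 near the floor) and DHX30 (0.97, on its dimmest probe set) became the higher genes. The lower 3 were the same genes, and the mitochondrial median was 0.33. Under that setting 6.45% of 31 measured members were higher and 9.68% lower, against 13.6% and 16% of all genes. A floor at percentile 25 gave 5 higher and 4 lower of 41 genes (12.2% and 9.76%, against 19.3% and 20.1% of all genes), with DDX25, DDX60 and DHX58 added. A floor at percentile 75 gave 2 higher and 1 lower of 35 (5.71% and 2.86%, against 8.36% and 13.8%), since DDX11 was no longer counted and DDX18 and DHX57 then lay close to or under the floor, and the median of the genes without an assigned role was -0.21. DDX46 passed 1.5-fold under median centring (and DHX40 did not), but not as deposited. Adding EIF4A3, found through its synonym DDX48, left both counts at 3. Apart from that, the causes of these shifts were not tested. No paired analysis was possible because each genotype had 1 array. Without replicate arrays or detection calls, dim members such as DDX11, DDX18 and DHX57 are the least certain.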

Other observations

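Neighbouring genes were read for the 6 helicase genes at least 1.5-fold apart, using the order of protein-coding genes in GRCg7b. Next to DDX18 on chromosome 7 lies CCDC93, a subunit of an endosomal recycling complex. Its signal was 1163 in wild type and 375 in the knockout, a log2 ratio of -1.64 on its single measured probe set, so that both genes were lower on the knockout array. DHX37 on chromosome 15 lies next to BRI3BP, which went from 1414 to 1938 (0.45) and was thus on the same side as DHX37. DHX40 on chromosome 19 lies between YPEL2 (-0.12) and the clathrin heavy chain gene CLTC, which was level at 7872 and 8277. The measured neighbour of DHX57 was SRSF7L, a splicing factor gene, level at 16427 and 16664. Neither neighbour of DDX10 or DDX11 was measured here. Pairs were not compared with other neighbouring genes, so nothing particular to them can be read from this.

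Chromosome 15 carries 4 measured helicase genes, all with roles in ribosome biogenesis. On their brightest probe sets they had log2 ratios of 0.80 (DHX37), 0.11 (DDX54), -0.0027 (DDX51) and -0.46 (DDX55), and so shared no direction.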
